A study of Mus musculus with 11 samples.

Results

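The genes described here encode initiation and elongation factors of the cytosolic ribosome and, in Eif2ak1 and Eif2ak3, kinases that act on the factor eIF2. All of them are called factors or members below. They were taken as every protein-coding mouse gene whose symbol starts with Eif or Eef and that has a row in the table of ribosome footprint counts. The table held 41 such genes among 4338 genes in all, out of 69 annotated. The other 28 are not analysed here. They include all 5 subunits of the exchange factor eIF2B, the eEF2 kinase gene Eef2k, the eIF4E-binding inhibitors Eif4ebp1, Eif4ebp2 and Eif4ebp3, the eIF2 kinase genes Eif2ak2 and Eif2ak4, and Eif6.

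Initiation factors bring the initiator tRNA and the small ribosomal subunit to the capped 5′ end of a messenger RNA, move the subunit along to a start codon and let the large subunit join. Elongation factors then deliver each aminoacyl-tRNA and drive the ribosome forward by a codon at a time. Ischaemia is known to slow protein synthesis in brain through phosphorylation of eIF2 and eEF2 and through the cap-binding complex, all of which act on the proteins. Footprints report a different step, the ribosomes found on the factors' own messenger RNAs.

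Footprints came from cortex of wild-type C57BL6 mice aged 7 to 8 weeks. In the stroke animals a filament blocked the right middle cerebral artery for 35 min, the common carotid artery was ligated, and tissue was taken 3 h after reperfusion. There were 4 libraries from the occluded (ipsilateral) hemisphere and 4 from the opposite (contralateral) hemisphere. A further 3 libraries came from sham mice, which were anaesthetised and had their arteries exposed without a filament; their side is not stated. All mice were briefly anaesthetised with isoflurane. A residual blood flow criterion was required of the stroke animals, so they are selected for a complete block and for prompt recovery of flow. For the ipsilateral samples the tissue entry names the contralateral hemisphere while the titles name the ipsilateral side, and the titles were followed. The replicate number stands for a day of surgery. How many animals went into a library is not stated, and p-values measure the spread between these libraries. Without total RNA libraries, the amount of a messenger RNA and its translation cannot be told apart in these values. In bulk cortex, fewer cells of a type and less RNA per cell cannot be told apart either.

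Libraries were shallow and differed in depth, and how far depth limited each comparison was not tested. Counts summed over genes, 1 transcript per gene, came to 64461 to 256655 for sham (n = 3), 137370 to 571352 for contralateral (n = 4) and 35066 to 137340 for ipsilateral cortex (n = 4). The factors took 1.14% ± 0.110 of all counts in sham, 1.14% ± 0.0832 in contralateral and 1.18% ± 0.102 in ipsilateral cortex (SD), and these ranges overlap. Summed over the 11 libraries, a member had between 101 and 6238 counts with a median of 248, and 14 members had fewer than 200. Neuron markers (11 of 11 in the table) summed to between 12709 and 16312 CPM in every library, where CPM is counts per 1000000 after TMM scaling of the library totals. All neuron, astrocyte, oligodendrocyte and microglia markers in the table were above 0 in each library.

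The eEF1A genes carry the largest number of footprints, and the pair shows what a footprint can and cannot separate. Eef1a1 and Eef1a2 encode near-identical proteins that deliver aminoacyl-tRNA to the ribosome. Eef1a2 is known as the form of mature neurons and muscle, and Eef1a1 as the form of most other cells. Their coding sequences were 80.1% identical over 1386 aligned bases, and 81.2% of the 276 mismatches fell at the third position of a codon. No 28-nt word was shared, and the longest identical run was 23 bases. The opening 90 bases of the coding sequences (GENCODE transcripts, mm10) are shown with the 15 mismatches in capitals, to make visible how a footprint is assigned to one copy:
Eef1a1: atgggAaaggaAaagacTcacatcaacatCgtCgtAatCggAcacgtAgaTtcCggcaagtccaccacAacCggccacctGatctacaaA
Eef1a2: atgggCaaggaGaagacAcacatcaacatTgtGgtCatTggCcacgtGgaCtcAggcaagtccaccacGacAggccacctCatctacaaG

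The RNA helicases Eif4a1 and Eif4a2, which unwind the leader of a messenger RNA within the cap-binding complex, form the other close pair. Their coding sequences were 78.0% identical over 1218 aligned bases, with 268 mismatches, no shared 28-nt word and a longest identical run of 20 bases. The stretches shown run from coding base 37 to 126 of Eif4a1 and from 43 to 132 of Eif4a2. They hold 18 mismatches, in capitals, and were chosen as the first in-frame stretch of that length without a gap:
Eif4a1: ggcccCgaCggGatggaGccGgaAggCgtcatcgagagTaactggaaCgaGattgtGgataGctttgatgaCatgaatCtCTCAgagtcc
Eif4a2: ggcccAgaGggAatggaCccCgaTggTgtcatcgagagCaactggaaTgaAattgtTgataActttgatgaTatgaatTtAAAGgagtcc

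Many of these genes have processed pseudogenes, so the copy a short read came from is not always known. Of the 28-nt words of the Eef1a1 transcript 73.6% also occur in another annotated gene, against 0.146% for Eef1a2. For Eif4a1 that share was 67.8%, for Eif4a2 40.0%, for Eef1g 68.7%, for Eif3m 56.8%, for Eif4a3 48.2% and for Eif3e 46.4%. In all, 21 of 41 members shared over 10% of their words with another annotated gene. Only Eif3j1 and Eif3j2 shared that much with another gene of the table, and 94.5% of the Eif3j2 words lie in Eif3j1, so the pair is best read as 1 signal. How reads with several matches were treated is not given in the sources used here. Its effect on the level of Eef1a1 beside that of Eef1a2 was not tested. Eif5b overlaps the oppositely oriented Rev1 over 1643 of its 7797 nt, Eif3d overlaps the antisense gene Gm17638 over 625 of 1899 nt, and the use of strand in counting is not given either.

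Levels per length differed widely among the members. In sham cortex, mean CPM per kilobase of coding sequence ran from 17.9 for Eif2ak3, which encodes the endoplasmic reticulum kinase PERK, to 2311 ± 203 (SD, n = 3) for Eef1a2, a 129-fold range. The lowest member that is not a kinase gene was Eif2a, at 32.1. The median member stood at 86.5, close to the 78.2 of the median among 4277 coding genes, and 24 of 41 members were above the latter. Eef1a2 ranked 41st of these genes per coding kilobase, Eef1a1 (906 ± 72.3) 144th, and Eef2 (515 ± 19.0), the translocase that moves the ribosome along, 298th. Per coding kilobase Eef1a2 was 2.55 times as high as Eef1a1. Next came Eif4h (493), a cofactor of the eIF4A helicase, Eif5a (430), which eases the joining of difficult residues, and Eif1b (309), a paralog of the start codon factor Eif1. Eif3k (301), Eif4a2 (296), Eif1ax (257), which acts in scanning, and Eif4a1 (247) completed the 10 highest.

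Order below the third place depended on the length used. Per kilobase of the whole transcript, Eef1a2, Eef1a1 and Eef2 stayed in places 1 to 3, and 8 of the 10 highest were shared. Eif1ax moved from place 9 to 34, and Eif4e, the cap-binding protein, from 14 to 36. Both are represented by transcripts that are long for their coding sequence (4991 nt for 651 coding nt in Eif4e). Together Eef1a2, Eef1a1 and Eef2 held 50.0% of the summed CPM of the 41 members in sham, 46.4% in contralateral and 47.4% in ipsilateral cortex. The eIF3 subunits held 17.7% and the eIF4 group 19.4% of it in sham.

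**Figure D1:**
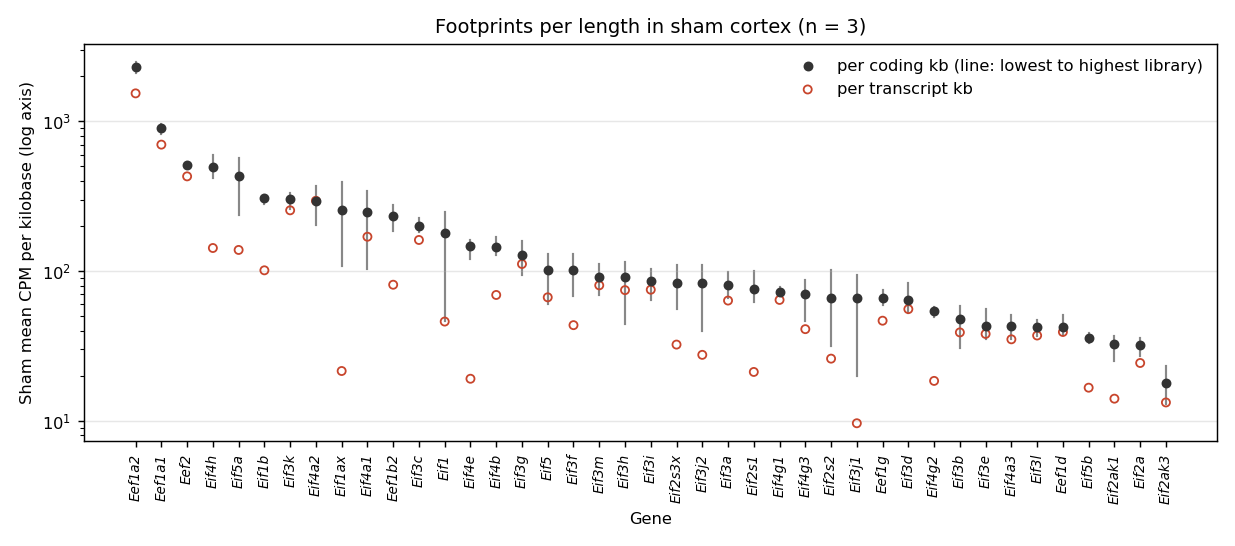
Mean CPM per kilobase in sham cortex (n = 3) on a log axis for the 41 genes, filled points per coding kilobase with a line from the lowest to the highest library, open points per transcript kilobase. Eef1a2, Eef1a1 and Eef2 lead by both lengths (2311, 906 and 515 per coding kilobase), while Eif1ax and Eif4e stand much lower per transcript kilobase.

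Ipsilateral against sham cortex addresses what is translated in the occluded hemisphere after 3 h of reperfusion. The main result for the factors is negative. Of the 37 members that passed the filter on low counts, 0 were called at an adjusted p of 0.05 by edgeR's quasi-likelihood test, against 4 of 3807 genes tested (0.105%). At an unadjusted p of 0.05 it was 1 member, Eif3e, against 294 genes (7.72%). DESeq2 and limma-voom also called 0 members. The remaining 4 members, Eif2a, Eif2ak1, Eif2ak3 and Eif3j1, did not pass the filter. The members' median log2 change was 0.13, with 23 of 37 above 0, beside a median of -0.00 over all tested genes. It was 0.05 without ipsilateral replicate 2 or 5, 0.07 without sham replicate 2 and between 0.09 and 0.19 without any other single library.

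Ipsilateral against contralateral cortex compares the hemispheres of occluded animals and shares the ipsilateral libraries. Again 0 of 37 members were called by edgeR, DESeq2 or limma-voom, against 12 of 3807 genes by edgeR (0.315%). At an unadjusted p of 0.05 the edgeR count was 1, Eif3b, against 300 genes (7.88%). The median log2 change was 0.00, with 19 of 37 above 0, and ran from -0.03 to 0.07 with 1 library left out at a time. Contralateral against sham cortex asks what changed away from the occlusion, and shares the sham libraries with the first comparison. There 0 members and 0 of 3807 genes were called (0.0%) by edgeR, and 0 members by the other tools. Eif3k and Eif5 had an unadjusted p under 0.05, 2 of 37 members against 213 genes (5.59%). The median was 0.14, with 24 of 37 above 0, and 0.01 over all genes. It was 0.03 without sham replicate 2, 0.04 without contralateral replicate 1, 0.05 without contralateral replicate 5 and between 0.09 and 0.14 without any other single library.

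These negatives have a measured width. The 95% interval of the log2 change lay wholly within 2-fold in either direction for 25 of 37 members between ipsilateral and sham, for 29 between ipsilateral and contralateral and for 32 between contralateral and sham cortex. It lay within 1.5-fold for only 5, 10 and 8 of them. For most members the interval therefore did not leave out a change of 1.5-fold in at least 1 direction. The median standard error was 0.31, 0.27 and 0.27 on the log2 scale.

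**Figure D2:**
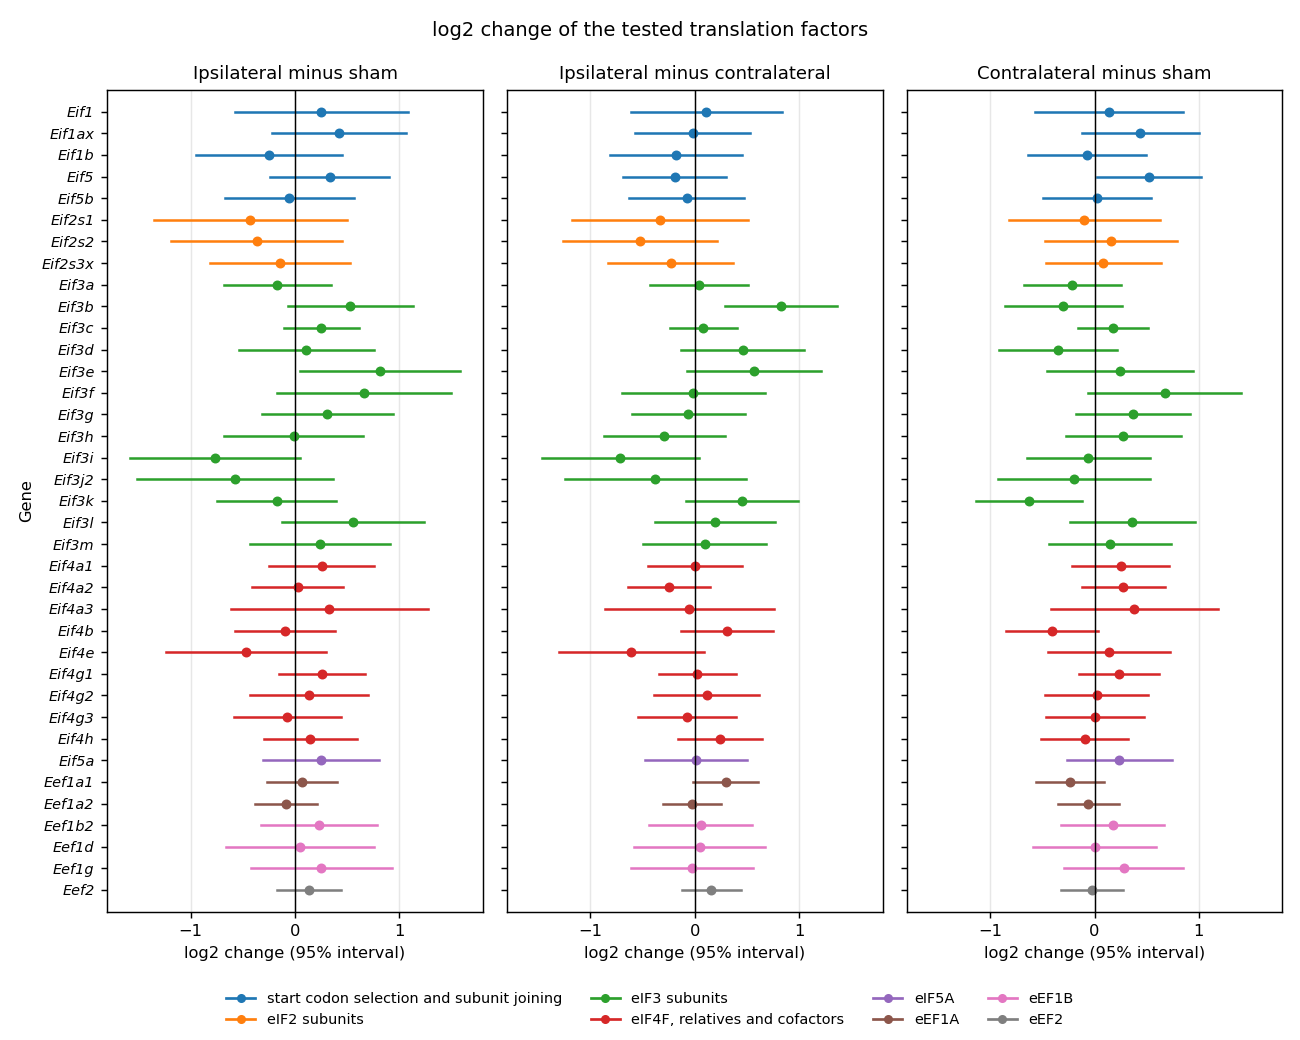
The log2 change of the 37 tested members with its 95% interval in each of the 3 comparisons, coloured by role. Points scatter on both sides of 0, and the intervals of Eef1a1, Eef1a2 and Eef2 are the narrowest of those shown beside Eif3c, while most others span over 1.5-fold.

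Eef1a2, Eef1a1 and Eef2 had the most counts of any member. Eef1a2 (chromosome 2, 181147653 to 181157014, minus strand, mm10) measured 3259, 2906 and 3464 CPM in sham replicates 1, 2 and 5. It measured 2787, 2925, 3909 and 2729 CPM in contralateral replicates 1, 4, 5 and 6, and 3081, 2894, 3564 and 2581 CPM in ipsilateral replicates 2, 4, 5 and 6. The groups overlap, and replicate 5 was the highest library in each. Ipsilateral minus sham was -0.09 ± 0.15 (log2, SE), with an interval from -0.38 to 0.21. Ipsilateral minus contralateral was -0.03 ± 0.14 and contralateral minus sham -0.06 ± 0.14.

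Eef1a1 (chromosome 9, 78478449 to 78481724, minus strand) measured 1300, 1141 and 1325 CPM in sham and 1066, 880, 1233 and 1105 CPM in contralateral cortex. In ipsilateral replicates 2, 4, 5 and 6 it measured 1713, 1181, 1078 and 1243 CPM. Replicate 2 stood above the other 10 libraries. Ipsilateral minus contralateral was 0.29 ± 0.15 (adjusted p = 0.656 by edgeR), ipsilateral minus sham 0.06 ± 0.17 and contralateral minus sham -0.23 ± 0.16. Without ipsilateral replicate 2 the change from sham was -0.11 and that from contralateral cortex 0.12.

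Eef2 (chromosome 10, 81176631 to 81182498, plus strand) measured 1320, 1281 and 1378 CPM in sham, 1175, 1378, 1355 and 1308 in contralateral and 1361, 1447, 1727 and 1303 in ipsilateral cortex. The groups overlap, and only ipsilateral replicate 5 lies apart. Ipsilateral minus sham was 0.13 ± 0.15, with an interval from -0.18 to 0.44, which leaves out a change of 1.5-fold in either direction. The exchange factor subunits that reload eEF1A with GTP, Eef1b2, Eef1d and Eef1g, gave ipsilateral minus sham changes of 0.23 ± 0.28, 0.05 ± 0.35 and 0.25 ± 0.33, with all 3 groups overlapping.

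The share of each copy within a pair does not depend on library scaling. Eef1a2 exceeded Eef1a1 in 11 of 11 libraries. Its share of the pair's counts was 71.5%, 71.8% and 72.3% in sham, 72.3%, 76.9%, 76.0% and 71.2% in contralateral and 64.3%, 71.0%, 76.8% and 67.5% in ipsilateral cortex. The sham libraries lay within a percentage point of each other, while the ipsilateral libraries held both the lowest and nearly the highest value. The pair had 259 to 1164 counts in a sham library and 138 to 641 in an ipsilateral library. How much of these spreads is counting error was not tested. Group means were 71.9% ± 0.427, 74.1% ± 2.77 and 69.9% ± 5.36 (SD). A two-sided exact permutation test over libraries gave p = 0.6 for ipsilateral against sham, 0.2 for ipsilateral against contralateral and 0.314 for contralateral against sham, or 0.657, 0.4 and 0.471 after Benjamini-Hochberg adjustment over 6 tests. The smallest p either design can give is 0.0286.

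Marker sums of other cell types also differed between the groups. Oligodendrocyte markers (10 of 12 in the table) summed to 3327 to 3953 CPM in sham and 3400 to 4471 CPM in contralateral cortex. In ipsilateral replicates 2, 4, 5 and 6 the sum was 9610, 7559, 4030 and 5917 CPM. Of these, replicate 2 had the highest sum with the lowest Eef1a2 share, and replicate 5 the lowest sum with the highest share. Replicates 4 and 6 went the other way, with shares of 71.0% at 7559 CPM and 67.5% at 5917 CPM. Microglia markers (8 of 10) summed to 906 to 1199 CPM in sham, 1237 to 1447 in contralateral and 1543 to 2067 in ipsilateral cortex. Blood markers (4 of 4) summed to 891 to 1320 CPM in sham, 567 to 998 in contralateral and 1038 to 2037 in ipsilateral cortex, where every ipsilateral library lay above every contralateral one. Astrocyte markers (11 of 11) summed to 25532 to 33532, 28496 to 39300 and 30649 to 33279 CPM, which overlap. The part of these markers in the eEF1A values, or in the other values of the factors, was not tested.

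For the helicase pair, the Eif4a2 share was 55.6%, 66.7% and 48.0% in sham, 51.8%, 52.3%, 57.4% and 53.7% in contralateral and 47.6%, 52.6%, 48.5% and 52.5% in ipsilateral cortex. The 66.7% of sham replicate 2 rests on 24 counts. Means were 56.7% ± 9.38, 53.8% ± 2.54 and 50.3% ± 2.63 (SD). The exact permutation test gave p = 0.2, 0.171 and 0.657 for ipsilateral against sham, ipsilateral against contralateral and contralateral against sham, or 0.4, 0.4 and 0.657 after adjustment. Without sham replicate 2 the difference between contralateral and sham cortex changed sign, from -2.95 to 2.00 percentage points.

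**Figure D3:**
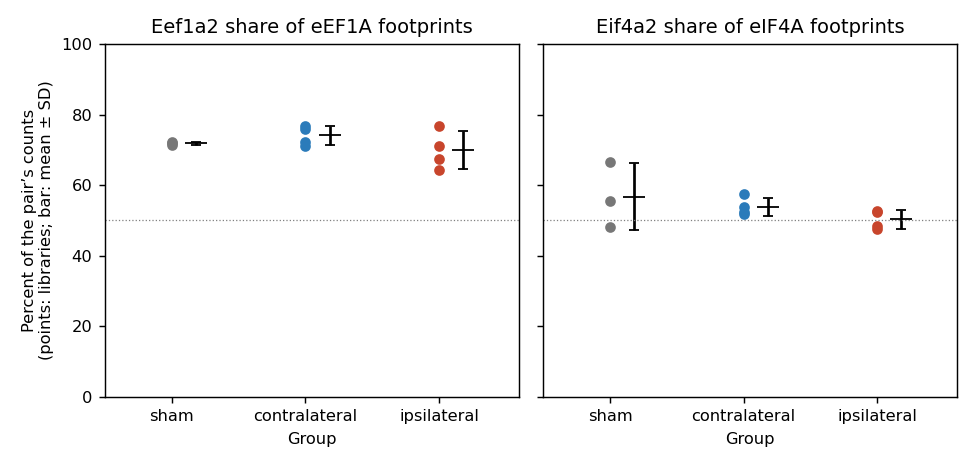
Share of Eef1a2 in the eEF1A counts (left) and of Eif4a2 in the eIF4A counts (right) as a percent per library, by group, with the mean and SD beside the points and a dotted line at equal shares. Sham libraries lie close together at 71.5% to 72.3% for Eef1a2, ipsilateral libraries run from 64.3% to 76.8%, and the eIF4A shares overlap between groups.

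eIF3 is the large scaffold that holds the small subunit and recruits messenger RNA; 14 of its genes are in the table and 13 were tested. Levels per coding kilobase in sham spanned 7.08-fold, from 42.6 for Eif3l to 301 for Eif3k. Of the 13 subunits, 8 were above 0 against sham and 8 against contralateral cortex, with medians of 0.24 and 0.08, and 0 were called in any comparison. Their summed CPM was 2252, 1828 and 2075 in sham, 2118, 2098, 2099 and 2241 in contralateral and 2221, 2658, 2340 and 2212 in ipsilateral cortex. The ranges overlap. Eif3c, the subunit with the most counts, gave 0.25 ± 0.18 against sham and 0.08 ± 0.16 against contralateral cortex.

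Single eIF3 subunits held the extremes of the whole family. Eif3b (chromosome 5, 140419328 to 140443360, plus strand), a core scaffold subunit, measured 129, 141 and 73.9 CPM in sham, 88.8, 107, 84.9 and 86.1 in contralateral and 135, 177, 159 and 180 in ipsilateral cortex. Every ipsilateral library lay above every contralateral one, while sham spanned the gap. The change from contralateral cortex was 0.83 ± 0.27 (unadjusted p = 0.00384, adjusted p = 0.256 by edgeR), the lowest adjusted p of any member in the 3 comparisons. It rested on 6 to 21 counts per ipsilateral library and 13 to 48 per contralateral library. Over 19 alternative settings it ran from 0.74 to 0.94, and its lowest adjusted p was 0.196.

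Eif3e (chromosome 15, 43250058 to 43282719, minus strand), a subunit at the edge of the complex, measured 50.9, 46.9 and 73.9 CPM in sham, 54.7, 38.3, 78.1 and 82.5 in contralateral and 74.8, 88.6, 122 and 129 in ipsilateral cortex. Ipsilateral libraries lay above all sham libraries, but by less than 1 CPM at the nearest pair. The change was 0.81 ± 0.38 against sham (adjusted p = 0.595) and 0.57 ± 0.32 against contralateral cortex. Ipsilateral replicate 4 had 3 counts and sham replicate 2 had 3.

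Eif3k (chromosome 7, 28971372 to 28981814, minus strand), a small peripheral subunit, measured 204, 219 and 169 CPM in sham and 116, 99.5, 160 and 115 in contralateral cortex. In ipsilateral cortex it measured 165, 295, 220 and 94.3 CPM. Contralateral libraries lay below all sham libraries (-0.63 ± 0.25, adjusted p = 0.815), and the ipsilateral libraries spanned both groups. Eif3i, another core subunit, was the lowest member in both ipsilateral comparisons, at 90.1, 62.5 and 100 CPM in sham, 75.2, 91.9, 105 and 75.4 in contralateral and 29.9, 59.1, 73.5 and 60.0 in ipsilateral cortex. Its changes were -0.77 ± 0.40 against sham and -0.71 ± 0.37 against contralateral cortex (adjusted p = 0.658 and 0.638), on 2 to 7 counts per ipsilateral library.

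Among the other subunits, the highest changes from sham after Eif3e were Eif3f at 0.66 ± 0.40 and Eif3l at 0.56 ± 0.34. Eif3l was above all sham libraries in each ipsilateral library (97.2 to 122 against 62.5 to 79.2 CPM). Eif3f was also the highest member for contralateral minus sham, at 0.67 ± 0.35. Eif3d, which can bind the cap itself, gave 0.46 ± 0.29 against contralateral cortex and -0.35 ± 0.28 for contralateral minus sham. Eif3j2 gave -0.57 ± 0.46 against sham, with the uncertainty of its near copy. Counted over the family, groups did not overlap for 2 of 37 members (Eif3e, Eif3l) between ipsilateral and sham, against 7.17% of all genes. It was 3 of 37 (Eif3b, Eif3i, Eif2s2) between ipsilateral and contralateral, against 4.57%, and 2 of 37 (Eif3k, Eif5) between contralateral and sham, against 7.70%. The members' counts are thus close to what the table holds in general.

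**Figure D4:**
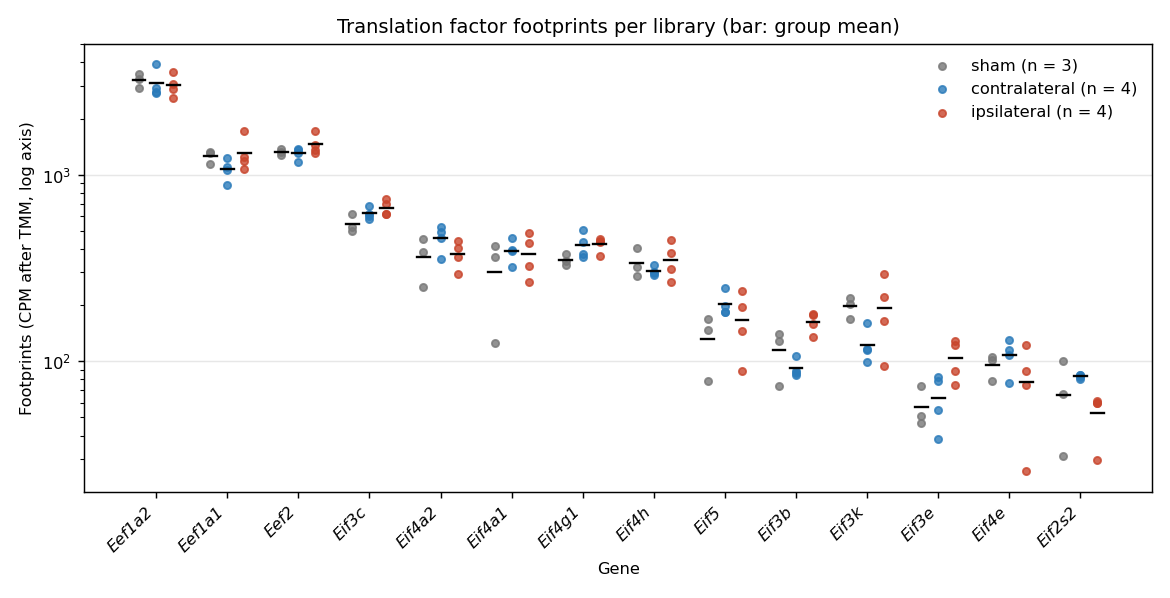
CPM after TMM scaling per library on a log axis for 14 members, grey for sham, blue for contralateral and red for ipsilateral cortex, with a bar at each group mean. In ipsilateral cortex Eef2 runs from 1303 to 1727 CPM and Eef1a1 from 1078 to 1713, while Eif4e runs from 25.7 to 122. Eif2s2 runs from 31.3 to 100 CPM in sham but only from 82.0 to 84.9 in contralateral cortex.

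eIF2 carries the initiator tRNA and is the target of the stress kinases. Its subunit genes Eif2s1, Eif2s2 and Eif2s3x encode the alpha, beta and gamma chains, and all 3 gave values below 0 in ipsilateral cortex, with 0 called. Against sham the changes were -0.43 ± 0.46, -0.37 ± 0.41 and -0.14 ± 0.33, and against contralateral cortex -0.33 ± 0.42, -0.53 ± 0.36 and -0.23 ± 0.30. Every one of these intervals includes 0. Contralateral minus sham was -0.10 ± 0.36, 0.16 ± 0.31 and 0.08 ± 0.27.

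Summed over the 3 chains, CPM was 243, 250 and 275 in sham, 266, 245, 258 and 282 in contralateral and 232, 148, 233 and 189 in ipsilateral cortex. All 4 ipsilateral sums lie below all 7 others, the nearest pair by under 11 CPM. Singly, Eif2s1 and Eif2s3x overlapped in both ipsilateral comparisons, and Eif2s2 overlapped against sham. Among all single genes tested, groups did not overlap for 7.17% against sham and 4.57% against contralateral cortex. These sums rest on 31, 5, 19 and 22 counts in the ipsilateral libraries, and in replicate 4 Eif2s1 had 0 counts and Eif2s2 had 1. A count of 0 there still allows up to 88.6 CPM (3 counts), which covers counting error only. The sum was formed after the members' values were seen and was not tested.

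Of the kinases that phosphorylate eIF2, Eif2ak1 (HRI) and Eif2ak3 (PERK) are in the table, and neither passed the filter. Eif2ak1 measured 46.9 to 68.6 CPM in sham, 30.6 to 95.6 in contralateral and 52.3 to 77.2 in ipsilateral cortex. Eif2ak3 measured 43.1 to 78.1, 38.3 to 67.9 and 12.2 to 60.0 CPM. Eif2a, an alternative carrier of the initiator tRNA, measured 46.9 to 62.7 CPM in sham, 38.3 to 95.6 in contralateral and 0 to 89.7 in ipsilateral cortex. The groups overlap for these 3 genes.

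**Figure D5:**
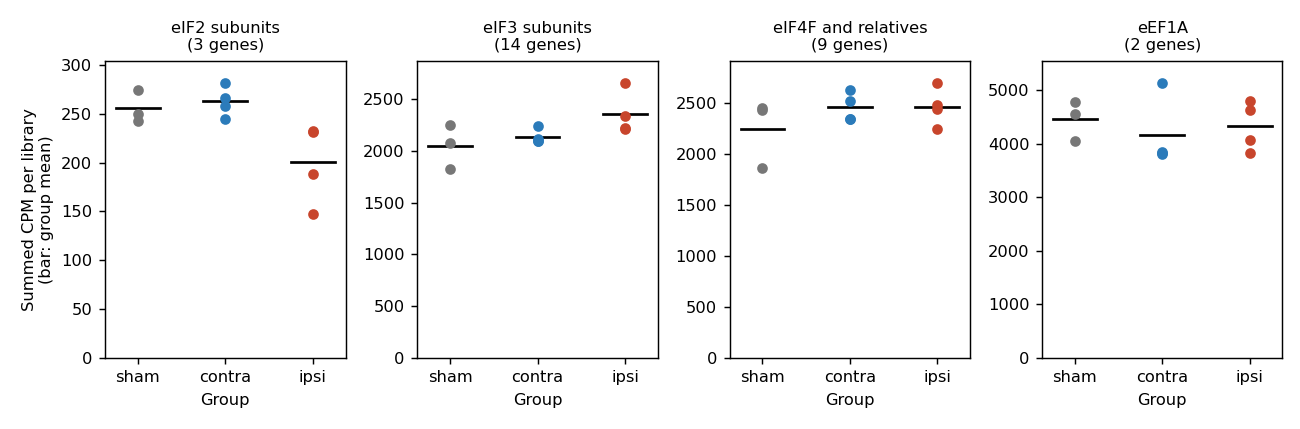
Summed CPM per library of the genes of eIF2, eIF3, the eIF4 group and eEF1A, with a bar at each group mean and axes from 0. The 4 ipsilateral eIF2 sums (148 to 233) lie below the sham and contralateral sums (243 to 282), and the other 3 sums overlap between groups. The eIF2 sum was formed after the values of its members were seen and was not tested.

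Start codon recognition and subunit joining is carried out by Eif1, Eif1ax, Eif5, which triggers GTP hydrolysis on eIF2, and Eif5b, which joins the subunits. Eif5 (chromosome 12, 111538782 to 111544923, plus strand) measured 168, 78.1 and 148 CPM in sham and 184, 184, 197 and 246 in contralateral cortex. In ipsilateral cortex it measured 239, 88.6, 196 and 146 CPM. Contralateral libraries lay above all sham libraries (0.52 ± 0.25, adjusted p = 0.859), and ipsilateral libraries reached from near the lowest sham to near the highest contralateral value. Eif1ax gave 0.42 ± 0.32 for ipsilateral and 0.44 ± 0.28 for contralateral cortex against sham, 2 values that share their sham libraries. Eif1 gave 0.25 ± 0.41 against sham, and -0.25 without ipsilateral replicate 2. Eif1b and Eif5b gave -0.25 ± 0.35 and -0.05 ± 0.31.

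The cap-binding complex eIF4F joins the cap-binding protein Eif4e, the scaffolds Eif4g1 and Eif4g3 and the helicase. Eif4e (chromosome 3, 138526179 to 138559696, plus strand) measured 102, 78.1 and 106 CPM in sham, 130, 76.6, 109 and 115 in contralateral and 74.8, 88.6, 122 and 25.7 in ipsilateral cortex. The groups overlap, and ipsilateral replicate 6, with 3 counts, is the lowest library. The changes were -0.47 ± 0.38 against sham and -0.61 ± 0.34 against contralateral cortex (adjusted p = 0.828 and 0.684). Eif4g1 gave 0.25 ± 0.20 against sham and 0.02 ± 0.18 against contralateral cortex, and Eif4g3 -0.07 ± 0.25 and -0.08 ± 0.23. Eif4g2, a scaffold without the cap-binding protein's site, gave 0.14 ± 0.28 and 0.12 ± 0.25.

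The helicases and cofactors behaved likewise. Eif4a1 gave 0.25 ± 0.25 and Eif4a2 0.02 ± 0.22 against sham, and 0.00 ± 0.22 and -0.25 ± 0.19 against contralateral cortex. Eif4h gave 0.15 ± 0.22 and 0.24 ± 0.20. Eif4b, which stimulates the helicase, was among the 3 lowest members for contralateral minus sham, at -0.41 ± 0.22, and gave -0.10 ± 0.24 for ipsilateral minus sham. Eif5a gave 0.25 ± 0.27 against sham and 0.01 ± 0.24 against contralateral cortex. In ipsilateral cortex it was 236 to 262 CPM, and in sham 109 to 264 CPM.

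Several of these messenger RNAs are known to begin with a terminal oligopyrimidine tract, a C and a run of C and T at the cap that places their translation under growth signalling. The 9 tested members on a list of such messenger RNAs had a median log2 change of 0.13 against sham, 0.06 against contralateral cortex and 0.18 for contralateral minus sham. The other 28 had medians of 0.12, -0.02 and 0.11. The start windows, 10 bases before to 20 from the RefSeq start (GRCm38.p6), are shown with a pyrimidine run in capitals for 2 listed genes that have one, the listed Eef2 that has none, the unlisted Eif3l that has one and the unlisted Eef1a2 that has none:
Eef1a1, chr9:78481705-78481734, minus strand: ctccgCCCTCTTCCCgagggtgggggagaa
Eif3f, chr7:108934405-108934434, plus strand: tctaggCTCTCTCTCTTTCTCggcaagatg
Eef2, chr10:81176621-81176650, plus strand: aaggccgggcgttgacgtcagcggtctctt
Eif3l, chr15:79075213-79075242, plus strand: gagttCTTCTTCCgctctctcccacgggct
Eef1a2, chr2:181156996-181157025, minus strand: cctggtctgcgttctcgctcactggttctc
A run was counted where a C followed by at least 4 of C or T lay within 5 bases of the start on the gene's strand. The base before that C could not be C or T, except for a C exactly 5 bases before the start. Eif3l was counted through that exception, while Eif2s3x, with a stretch of C and T that opens with T, was not counted. By this rule a run was found in 7 of the 34 members with a window (20.6%) and in 14.8% of all 32851 RefSeq windows. Of the 5 listed members with a window 2 had a run, while Eef2, Eef1b2 and Eif4b had none, and 5 of the 7 members with a run (Eif2ak1, Eif2ak3, Eif3b, Eif3l and Eif4g1) are not on the list. Such a match is a description of letters and not of use.

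Genes that act on these factors were looked at from a list of 78 partners, of which 45 were in the table and 42 were tested. edgeR called 0 of 42 in any comparison, beside the 0.105%, 0.315% and 0.0% of all genes. At an unadjusted p of 0.05 it was 3, 2 and 1 of 42 for ipsilateral minus sham, ipsilateral minus contralateral and contralateral minus sham. The shares of all genes at that threshold were 7.72%, 7.88% and 5.59%. Median changes were 0.00, -0.13 and 0.11, with 21, 14 and 27 of 42 above 0, beside 50.0%, 49.6% and 52.0% of all genes. By group, the values above 0 against sham were 1 of 6 for stress signalling to eIF2, 4 of 8 for growth signalling, 4 of 8 for neuronal translation repressors, 3 of 4 for termination and recycling, 3 of 3 for poly(A)-binding proteins and 2 of 6 for ribosome-bound regulators. Reinitiation factors gave 1 of 3, modifiers of eEF1 and eEF2 1 of 2, and mitochondrial factors 2 of 2.

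Atf4, the transcription factor whose messenger RNA is preferentially translated when eIF2 is phosphorylated, had the highest value of the partners in both ipsilateral comparisons. It measured 27.4, 31.3 and 73.9 CPM in sham, 41.0, 53.6, 44.2 and 37.7 in contralateral and 105, 118, 12.2 and 137 in ipsilateral cortex. Ipsilateral replicates 2, 4 and 6 lie above all 7 other libraries and replicate 5 below all of them. The change was 1.04 ± 0.50 against sham and 1.14 ± 0.43 against contralateral cortex (edgeR adjusted p = 0.628 and 0.434), on 105 counts over all libraries.

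Other partners at the ends of the list were also uncalled. Rptor, the substrate-binding subunit of the growth kinase complex mTORC1, measured 110 to 127 CPM in sham, 91.9 to 129 in contralateral and 34.3 to 110 in ipsilateral cortex, with changes of -0.73 ± 0.36 and -0.65 ± 0.33. Gcn1l1, a coactivator of the eIF2 kinase GCN2, gave -0.69 ± 0.32 against sham and -0.34 ± 0.25 for contralateral minus sham. Drg2, a ribosome-associated GTPase, gave -0.78 ± 0.40 and -0.57 ± 0.31 for the same comparisons. Gfm1, a mitochondrial elongation factor, gave 0.68 ± 0.42 against sham, and Gigyf2, a repressor that binds the cap-binding protein 4EHP, 0.41 ± 0.36 against contralateral cortex. Fmr1, which encodes the fragile X protein, gave -0.67 ± 0.41 against contralateral cortex and 0.47 ± 0.37 for contralateral minus sham. Rps6, the ribosomal target of S6 kinase, was highest in the latter comparison at 0.48 ± 0.23.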

How the data were processed

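Ribosome-protected fragments were measured in 11 cortex libraries. Per the labels' protocols, tissue was digested with micrococcal nuclease and monosomes captured through ribosomal protein P0, with a gel selection of 30 to 50 nt. The table deposited by the authors holds raw counts of footprints for Ensembl transcripts, with a column for every library. The submitters' processing notes list Bowtie2, edgeR and mm10 with no version. How reads were counted, and the treatment of multiple matches and strand, is not given in the sources. Of 9784 transcripts, each with at least 101 summed counts, 9736 matched GENCODE vM21, and the 48 others (0.306% of counts) stayed out. For each gene the transcript of highest summed count was used. Library totals ran from 35066 to 571352. A count of 0 allows up to 3 counts in any library, which is 5.38 CPM in the deepest and 88.6 CPM in the shallowest.

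Tests used edgeR 4.0.16 (R 4.3.3): filterByExpr with a minimum count of 10 (3807 genes kept, 531 removed), TMM, robust quasi-likelihood fits of all 11 libraries by group, F tests, and Benjamini-Hochberg adjustment over all tested genes at 0.05. The common dispersion was 0.0291. Standard errors are Wald errors of the fitted log2 change and intervals are at 95%. Paralog shares used two-sided exact permutation tests over libraries. The alternatives used DESeq2 1.42.0, limma 3.58.1, other scaling, filters, transcripts and lengths, libraries left out, and the replicate block. The fit was checked on simulated data. The simulated counts used the common dispersion for every gene, so that check cannot show power where genes or libraries spread more widely. The members and lists were chosen with earlier results of these data known. Named were the 3 highest and 3 lowest members of each comparison, the 10 highest per coding kilobase, fixed members of each role, and 2 highest and 2 lowest partners; members just past an unadjusted p or set apart in flagged values were named after their values were seen. By the submitters' design text a replicate number is a day of surgery. As a check, deviations from group means correlated across genes with r from -0.137 to 0.225 (median 0.134) for 7 same-number pairs and from -0.256 to 0.262 (median -0.0294) for 33 others. The sum of 1 marker list, which differed between sham and the other groups, is not reported here.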

Additional observations from a re-analysis of the deposited data

Results flagged for a closer look

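In groups of 4 libraries, 5 of 78 groups of member values (6.41%) held a library far from the other 3 by Dixon's ratio, and chance flags about 1 in 20. Eef1a2 was at 3909 CPM in contralateral replicate 5, on 1151 counts, and the next library was at 2925 CPM. Without that library ipsilateral minus contralateral for Eef1a2 was 0.11. Eif3f was at 283 CPM in ipsilateral replicate 6, on 33 counts, with the next at 118 CPM. The other 3 lay in ipsilateral replicate 4, the shallowest library. Eif2s2 was lowest at 29.5 CPM, on 1 count, against 59.8 for the next. Eif3h was lowest at 59.1 CPM, on 2 counts, against 110 for the next. Eif2s3x was highest at 118 CPM, on 4 counts, against 98.0 for the next.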

How the results depend on the processing

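No member was called by any of 20 alternatives in any comparison, and the lowest adjusted p among them was 0.196. With the replicate block the counts were 0, 0 and 0, and the medians 0.12, 0.09 and 0.09 for ipsilateral minus sham, ipsilateral minus contralateral and contralateral minus sham, and the block changed no member's call. Over all genes, calls moved by 1.5 times or more in the following settings. For ipsilateral minus sham they ran from 0 without sham replicate 1 to 22 without ipsilateral replicate 5. They were 2 without sham replicate 5 and 6 with DESeq2. For ipsilateral minus contralateral they ran from 3 without ipsilateral replicate 2 to 26 without ipsilateral replicate 5. Between these lay 4 without contralateral replicate 6 and 5 without contralateral replicate 1 or ipsilateral replicate 4. Upper-quartile scaling, limma-voom, the stricter filter and leaving out the 2 shallowest libraries each gave 8. For contralateral minus sham they ran from 0 to 3 without sham replicate 5. They were 1 without ipsilateral replicate 6 and 2 with DESeq2. The stricter filter left 12 members, and their median for contralateral minus sham was -0.045. Without the 2 shallowest libraries the medians were 0.06, 0.04 and 0.03 in the same order of comparisons. For the Eif4a2 share, contralateral minus sham was 2.00 percentage points without the 2 shallowest libraries and 2.81 with the replicate block, whose smallest possible p is 0.5; leaving out 1 library at a time it ran from -7.32 to 2.00, and the cause was not tested. Of 2145 single-member changes, 2120 stayed within 1 standard error of the reported value, and 152 changed sign, 5 of them by more than 1 standard error. These 5 were Eef1a1 (ipsilateral minus sham, -0.11) and Eif1 (-0.25 against sham, -0.39 against contralateral cortex) without ipsilateral replicate 2, Eef1a2 (ipsilateral minus contralateral, 0.11) without contralateral replicate 5, and Eif4a1 (contralateral minus sham, -5.69e-05) without the 2 shallowest libraries. With 1 library left out at a time these ran from -0.11 to 0.15 for Eef1a1, from -0.25 to 0.60 and from -0.39 to 0.46 for Eif1, and from -0.11 to 0.11 for Eef1a2. At the depth of the ipsilateral libraries, values near 100 CPM rest on few counts.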
